A study of Mus musculus with 30 samples.

Results

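The comparison described here is that of indolo[3,2-b]carbazole (ICZ) with vehicle in F1, the epithelium that left the mouse small intestine first during stepwise EDTA release. The comparison was chosen with earlier results of these data known, and its libraries were picked by label. It rests on 5 of the 30 libraries of the series. Of these, 3 are from vehicle mice (vehicle replicates 1 to 3) and 2 from ICZ mice (ICZ replicates 1 and 2). All mice were female C57BL/6J animals, 8 to 10 weeks old, labelled WT in their titles, that had eaten the semi-purified AIN93G diet for 1 week after chow. They were gavaged with corn oil alone or with 10 µg ICZ in corn oil, and tissue was taken 12 h later. RNA was read with QuantSeq 3' end libraries, whose reads come from the ends of transcripts. For the third ICZ mouse no F1 values were used here, so the ICZ group holds 2 mice in F1 and 3 in each of F2 to F5.

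ICZ derives from indoles and binds the aryl hydrocarbon receptor (AHR). This transcription factor is held in the cytoplasm by a chaperone complex until a ligand binds. The bound receptor enters the nucleus, pairs with ARNT and binds DNA that holds the core GCGTG, and Cyp1a1 is its best known target. The intestinal epithelium renews from stem cells in the crypt, and its cells mature as they climb the villus. Absorptive enterocytes at the villus tip are the oldest and are shed into the lumen. AIN93G holds few plant-derived AHR ligands, and CYP1A1 itself breaks down many AHR ligands.

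The F1 libraries held 5094574 to 7620163 reads assigned to genes and 17954 to 19527 genes with a read. Values below are CPM, the usual read counts scaled to library size, with sizes adjusted by TMM, a factor that corrects for composition. Replicates differed by more than sampling noise, with a chi-square per degree of freedom of 7.05 to 17.2 over genes. Markers of mature absorptive cells were highest in F1 and those of the crypt lowest. In vehicle mice the summed level of 25 absorptive enterocyte markers averaged 65000 CPM in F1 and 32820 in F5, while that of 29 proliferation genes was 803 in F1 and 1858 in F5. Pancreatic acinar and stromal markers were near 0, at no more than 20.8 and 14.1 summed CPM in any F1 library.

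Of 12335 genes tested in F1, 4 rose with ICZ at an adjusted p under 0.05 (edgeR quasi-likelihood test, Benjamini-Hochberg), which is 0.0324% of those tested. They were Cyp1a1, Bco1, Tns4 and Tmem86b. No gene fell (0%). At an unadjusted p under 0.05 there were 360 genes higher (2.92%) and 182 lower (1.48%). The 2 ICZ libraries lay above all 3 vehicle libraries in 1256 genes (10.2%) and below them in 1193 (9.67%). DESeq2 called 16 genes higher and 2 lower, all 4 of the edgeR calls among them. With edgeR, 1 gene was called without ICZ replicate 1 and 22 without vehicle replicate 1. Members of the lists below are set beside these shares. The lists were chosen with earlier results of these data known and some share members, so this is a description and no test.

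**Figure D1:**
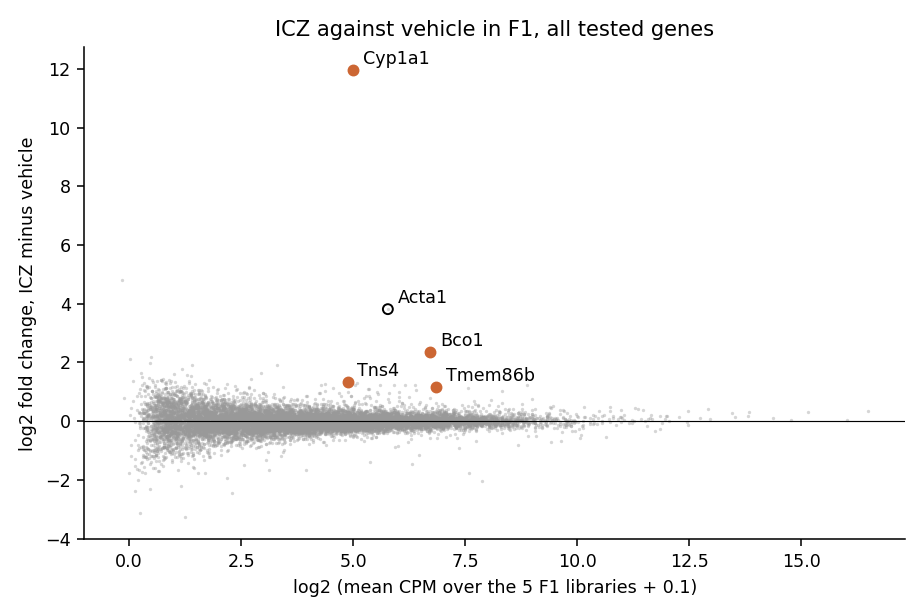
Mean level (x axis, log2 of CPM plus 0.1) against the fitted log2 fold change of ICZ over vehicle in F1 (y axis) for each tested gene. The 4 filled points are the genes past the threshold; the open circle is Acta1, which did not pass. The height of Cyp1a1 depends on the fit, since its vehicle reads were 0.

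The upstream stretches of the genes that rose, and of Cyp1a2, are shown because AHR acts through a short DNA core. They are the 250 bases before the RefSeq start in GRCm38.p6, and capitals mark GCGTG on either strand. Cyp1a1 is at chr9:57697363-57697612 (plus strand), Cyp1a2 at chr9:57683656-57683905 (minus), Bco1 at chr8:117095615-117095864 (plus) and Tmem86b at chr7:4630483-4630732 (minus). Tns4 was not matched in the RefSeq table.
Cyp1a1: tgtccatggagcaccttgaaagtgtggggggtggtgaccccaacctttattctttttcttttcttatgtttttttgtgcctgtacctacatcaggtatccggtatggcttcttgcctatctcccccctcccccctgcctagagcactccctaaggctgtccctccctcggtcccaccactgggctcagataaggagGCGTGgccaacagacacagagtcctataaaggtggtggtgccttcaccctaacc
Cyp1a2: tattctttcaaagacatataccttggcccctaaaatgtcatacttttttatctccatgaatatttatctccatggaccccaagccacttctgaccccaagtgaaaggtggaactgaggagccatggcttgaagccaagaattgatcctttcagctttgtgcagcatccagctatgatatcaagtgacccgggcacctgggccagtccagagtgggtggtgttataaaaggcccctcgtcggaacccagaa
Bco1: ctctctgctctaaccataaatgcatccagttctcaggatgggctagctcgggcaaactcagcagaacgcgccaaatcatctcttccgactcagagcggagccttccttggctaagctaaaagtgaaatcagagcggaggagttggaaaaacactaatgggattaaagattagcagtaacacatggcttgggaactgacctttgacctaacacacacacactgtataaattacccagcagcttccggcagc
Tmem86b: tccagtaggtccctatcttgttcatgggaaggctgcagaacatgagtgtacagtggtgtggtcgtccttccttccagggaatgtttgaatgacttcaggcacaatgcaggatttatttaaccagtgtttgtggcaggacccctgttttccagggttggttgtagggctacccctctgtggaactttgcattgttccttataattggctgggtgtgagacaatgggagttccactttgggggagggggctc

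The core GCGTG was searched on both strands from 250 bases before to 50 after the start, and it overlaps no other motif searched except the longer TNGCGTG, which contains it. Cyp1a1 held 1 copy, which begins 54 bases before the start. Cyp1a2, Bco1 and Tmem86b held 0 in this window. None of these 4 genes held TNGCGTG, while Acsf2 (higher) and Cactin (lower) each held 1. Sequence further upstream was not searched. Of all 32851 windows of this length, 32.4% held GCGTG and 5.07% held TNGCGTG. Among the genes named under the rule given with the processing, 5 of 10 higher and 4 of 8 lower genes with a window held GCGTG. A match describes the letters only and is no binding site by itself.

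Cyp1a1 encodes a cytochrome P450 that oxidises planar aromatic compounds (chr9:57687928-57703824 in GRCm38, plus strand). It had 0 reads in each of the 3 vehicle libraries of F1, against 465 reads (99.9 CPM) in ICZ replicate 1 and 380 (59.3 CPM) in replicate 2. The groups did not overlap. With vehicle set to the 3-read floor, the ratio of ICZ to vehicle was 518, with a 95% counting interval from 421. The edgeR test gave an adjusted p of 0.00486. Leaving out single libraries put the ratio by this floor between 334 and 678. The adjusted p stayed under 0.05 in each setting tried but the fit that shared its dispersion over all 29 libraries, where it was 0.0606. Cyp1a2, the neighbouring family member best known from liver, had 0 vehicle reads, and 33 reads over both ICZ libraries (a mean of 2.78 CPM). Its ratio by the same floor was 20.2, with a 95% counting interval from 15.6. It was too low for the filter on low counts, so it was not in the main test. Of the 4 alternatives that tested it, it passed with no filter (edgeR adjusted p = 1.71e-05), where the typical gene's own variance had no weight. It did not pass with a minimum of 1 CPM (0.122) or in the fit over all 29 libraries (0.0606). The alternative without ICZ replicate 1 left 1 ICZ library.

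No other AHR gene passed the test. Nqo1, a quinone reductase that AHR and NRF2 both drive, read 12.6, 9.18 and 9.22 CPM in vehicle and 15.0 and 15.6 with ICZ, without overlap (log2 fold change 0.58 ± 0.23 SE, adjusted p = 0.995). Tiparp, a feedback ADP-ribosylase, read 60.0 to 94.2 CPM in vehicle against 71.5 and 72.7 with ICZ, so the groups overlapped. Cyp2s1 (-0.08 ± 0.18) and Ugt1a6a (0.22 ± 0.54) also overlapped. Ahrr, the receptor's repressor, stayed at or under 1.25 CPM in all 5 libraries. Cyp1b1 had 1 read in 1 vehicle library, and Aldh3a1 and Ugt1a6b had 0 reads. The genes Ugt1a6a and Ugt1a6b overlap on the same strand, and reads that fall in both may go uncounted. Their counts therefore cannot tell low expression from lost reads. Of the 10 AHR targets, 5 were tested, 1 rose and 4 did not pass.

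The receptor itself was low. Ahr read 6.92, 5.54 and 9.52 CPM in vehicle and 12.0 and 13.3 with ICZ, without overlap, but did not pass after adjustment (0.80 ± 0.28, adjusted p = 0.995). Its partner Arnt (-0.04 ± 0.20) and its chaperones Hsp90aa1 (-0.06 ± 0.14), Hsp90ab1 (-0.18 ± 0.14) and Ptges3 (-0.11 ± 0.15) had overlapping groups. The sign for Arnt and Hsp90aa1 changed in some settings.

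Bco1 encodes the oxygenase that splits beta-carotene into retinal (chr8:117095854-117133720, plus strand). It read 52.5, 39.7 and 27.7 CPM in vehicle and 237.5 and 170 with ICZ. The lowest ICZ library stood above the highest vehicle library by a wide gap. The log2 fold change was 2.37 ± 0.25 (adjusted p = 0.0424). The adjusted p was 0.17 without ICZ replicate 1 and 0.348 without vehicle replicate 2, while the fold stayed between 2.09 and 2.59 on the log2 scale over all settings. Among the other retinoid genes, Rbp2, the enterocyte retinol carrier, read 1692 to 2714 CPM in vehicle and 2841 and 3167 with ICZ (0.46 ± 0.18, adjusted p = 0.995). Scarb1, which takes up carotenoids, read between 8.07 and 16.98 CPM in vehicle against 18.0 and 23.6 CPM (0.85 ± 0.29, adjusted p = 0.995). Isx, a repressor of Bco1 and Scarb1, read 52.9 to 60.4 against 44.9 and 51.3 CPM (-0.24 ± 0.15, adjusted p = 0.995). Of 10 tested genes in the retinoid list 1 rose, and 5 had a positive and 5 a negative log2 fold change.

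Tmem86b encodes lysoplasmalogenase, which cleaves the vinyl ether bond of lysoplasmalogens (chr7:4628040-4631422, minus strand). It read 84.2, 80.9 and 66.0 CPM in vehicle and 191 and 152.5 with ICZ (log2 fold change 1.17 ± 0.14, adjusted p = 0.0060). Tns4 encodes tensin 4, an adaptor at focal adhesions (chr11:99065678-99089306, minus strand). It read 22.4, 16.6 and 15.8 CPM in vehicle and 48.5 and 42.7 with ICZ (1.33 ± 0.18, adjusted p = 0.0141). Neither gene's groups overlapped, which the naming rule required. Without ICZ replicate 1 the adjusted p was 0.25 for Tmem86b and 0.458 for Tns4. Tns4 also missed the threshold without vehicle replicate 2 (0.14), vehicle replicate 3 (0.0844) or ICZ replicate 2 (0.0673).

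**Figure D2:**
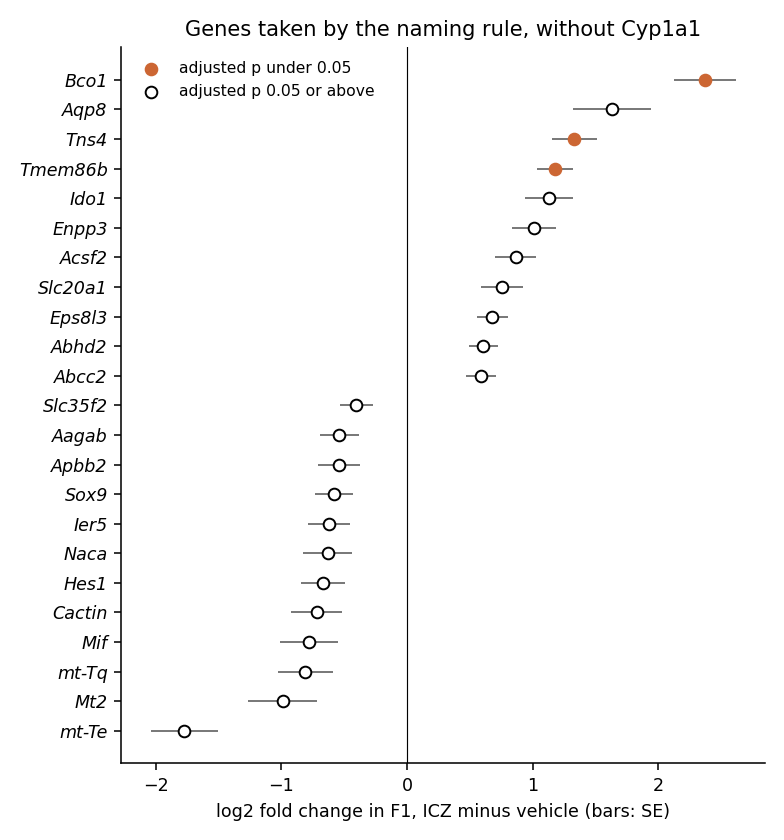
Log2 fold change in F1 (x axis, ICZ minus vehicle, bars are SE) of the genes taken by the naming rule other than Cyp1a1. Bco1, Tns4 and Tmem86b, filled, are past the threshold; the open circles are not.

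The higher genes of next smallest p did not pass in the main test. Ido1, which opens the tryptophan ring towards kynurenine, read 15.0, 16.9 and 15.7 CPM in vehicle and 28.4 and 40.1 with ICZ (1.13 ± 0.19, adjusted p = 0.0782). Eps8l3 of the EPS8 actin regulator family read 159 to 180 against 266 and 269.5 CPM (0.68 ± 0.12, adjusted p = 0.111). Enpp3, an ectonucleotidase, read 203 to 263 against 550 and 356 CPM (1.01 ± 0.17, adjusted p = 0.134). Ido1, Eps8l3 and Enpp3 had groups that did not overlap, but the naming rule required this, so it is no added support. The water channel Aqp8 read 2.64 to 5.07 against 12.9 and 12.5 CPM (1.63 ± 0.31), the lipid hydrolase Abhd2 261 to 267 against 410 and 389 (0.61 ± 0.12), and Acsf2, an acyl-CoA synthetase, 20.5 to 26.2 against 43.0 and 40.9 (0.86 ± 0.16). Each of these had an adjusted p of 0.134. Abcc2, an apical efflux pump for conjugated drugs, was at 364 to 368 CPM in vehicle and 563 and 529 with ICZ (0.59 ± 0.12, adjusted p = 0.178). The vehicle libraries of Abcc2 and Abhd2 sat close together beside the size of the difference, which picking by smallest p favours. DESeq2 called all 7 of these genes, but each passed in only 3 to 5 of 16 settings. Slc20a1, also taken by the rule, was not called by DESeq2 and passed in 2 of 16. Its log2 fold change was 0.76 ± 0.16 (adjusted p = 0.328 by edgeR).

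The lower genes of smallest p also did not pass in the main test. mt-Te, a mitochondrial tRNA for glutamate, read 191, 278 and 337 CPM in vehicle and 69.2 and 87.0 with ICZ (-1.77 ± 0.27, adjusted p = 0.245). It passed in 6 of 16 settings, among them DESeq2 (adjusted p = 4.29e-12), non-robust dispersion (0.0149) and without vehicle replicate 1 (1.07e-06) or 3 (0.0212). Whether the counting used strand is not given in the sources used here, so reads from the opposite strand of this locus may be among its counts. Hes1, a Notch target that holds back secretory fate, read 40.7 to 49.1 against 30.1 and 25.6 CPM (-0.67 ± 0.17, adjusted p = 0.529). Sox9, a transcription factor of the crypt, read 47.7 to 49.4 against 31.1 and 33.2 CPM (-0.58 ± 0.15, adjusted p = 0.529). The cytokine Mif read 15.1 to 23.0 against 9.88 and 12.2 CPM (-0.78 ± 0.23, adjusted p = 0.883), and the metallothionein Mt2 10.9 to 17.1 against 6.66 and 6.86 (-0.99 ± 0.28, adjusted p = 0.667).

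Acta1, the actin of skeletal muscle, was chosen after its values were seen. It read 15.1, 5.70 and 5.56 CPM in vehicle and 158.5 and 88.3 with ICZ, with no overlap between groups (log2 fold change 3.82 ± 0.54). Its adjusted p was 0.529, but 1.38e-05 with DESeq2, 0.0112 in the fit over all 29 libraries and 0.0067 without vehicle replicate 1. Actins share long stretches of sequence. Whether this reaches the transcript ends read here, and so the assignment of reads to Acta1, was not tested. The sum of 12 muscle and stromal markers was 6.65, 8.03 and 14.1 CPM in vehicle, with both ICZ libraries inside that range. Tagln, a member of that list, had 0 reads, and whether that comes from expression or from the counting was not tested.

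F1 could be set beside F2 to F5 of the same mice, where the ICZ group also holds replicate 3. Cyp1a1 was higher with ICZ in each fraction without overlap, with vehicle means of at most 0.107 CPM and ICZ means of 79.6 (F1), 45.1 (F2), 45.6 (F3), 32.8 (F4) and 31.3 CPM (F5). ICZ replicate 3, which has no F1 value here, was the lowest of the 3 ICZ mice in each of F2 to F5, at 8.27 to 15.9 CPM. Mean Bco1 was lower in later fractions in both groups, at 40.0 CPM in F1 and 8.23 in F5 in vehicle and at 204 and 29.8 with ICZ. Its log2 fold change was 2.37 in F1 and 1.49 to 1.93 in F2 to F5. That of Tns4 was 1.33, 0.92, 0.54, 0.38 and 0.27 from F1 to F5, and that of Tmem86b 1.17, 0.66, 0.70, 0.81 and 0.47.

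The test of whether the ICZ effect in F1 differed from its mean in F2 to F5, over 14067 genes with the mouse as a block, called 0 genes (0%, edgeR), with 277 higher and 313 lower at an unadjusted p under 0.05 and 0 with DESeq2. The smallest adjusted p was 0.665, for Mif, at -1.05 ± 0.22. Tns4 differed by 0.84 ± 0.24 (adjusted p = 1.00 by edgeR). Tmem86b differed by 0.35 and Bco1 by 0.39, and Bco1's sign turned without vehicle replicate 1, to -0.02. The next genes by p were Fam122a (0.94), Cdx1 (-0.74), Zfp101 (-1.14), Slc20a1 (0.67) and Dedd2 (0.70), given as differences of log2 fold changes, none past the threshold. Cyp1a1 gives no usable value here because vehicle reads were 0. Within single fractions, the same test called 2 genes in F2 (0.0165%; Ikzf2 and Padi2, both lower, outside the naming rule), 1 in F3 (0.00815%), 0 in F4 (0%) and 0 in F5 (0%). At an unadjusted p under 0.05 there were 542 genes in F1, 1455 in F2, 1122 in F3, 349 in F4 and 342 in F5. The 1 gene of F3 was Acta1. None of the 4 genes called in F1, Cyp1a1 included, was called within F2 to F5. Ido1 had overlapping groups in F2 to F5, but its difference between F1 and the later fractions was 0.64 ± 0.84 (adjusted p = 1.00 by edgeR).

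**Figure D3:**
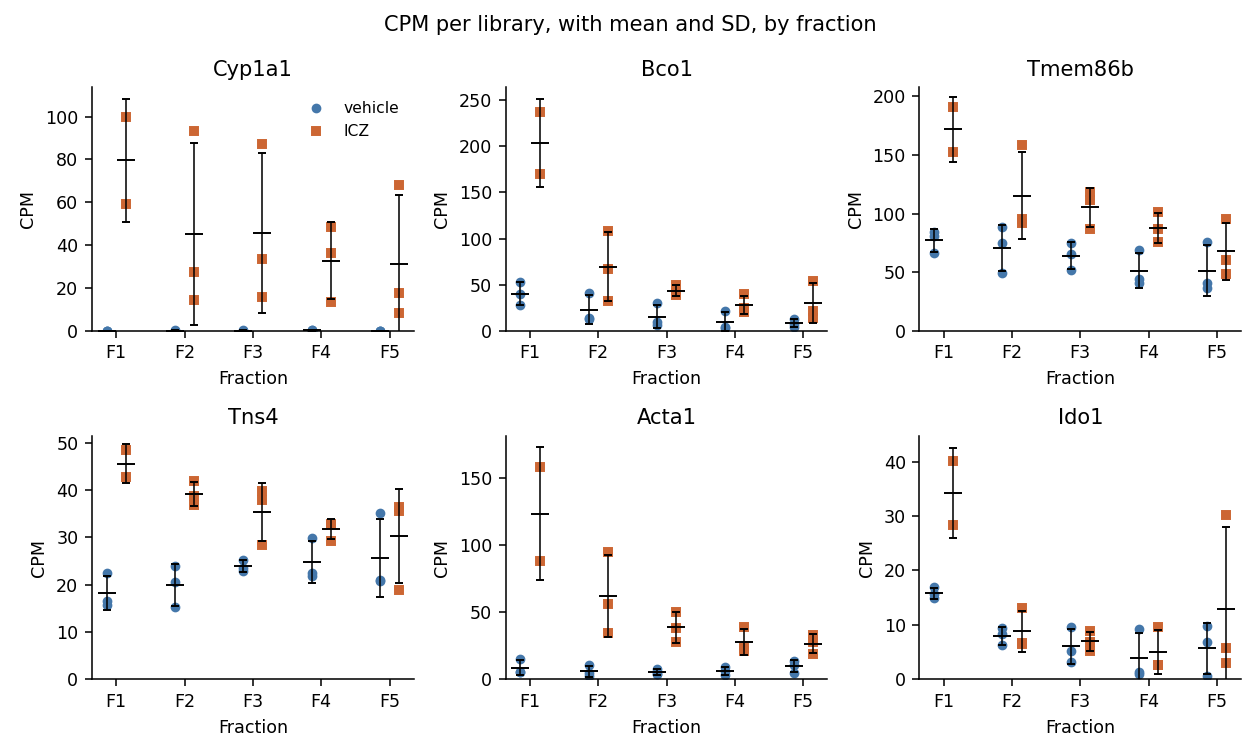
CPM (y axis) by fraction (x axis) for the 4 genes past the threshold in F1, for Acta1 and for Ido1. Circles are vehicle and squares ICZ libraries, with the mean as a bar and the SD as whiskers (n = 3, but 2 for ICZ in F1). Cyp1a1 stays at or near 0 in vehicle, and Ido1 stands apart by treatment in F1 but overlaps in F2 to F5.

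Genes of the villus tip were mostly higher with ICZ in F1, none past the threshold. The 16 tested members had a median log2 fold change of 0.51, against -0.01 over all 12335 genes. Of them 14 were positive, 8 passed an unadjusted p of 0.05 in the higher direction and 9 had groups apart in that direction. Neat1, a nuclear long RNA, read 188 to 254 against 423 and 275 CPM (0.71 ± 0.18), and Krt20, a keratin of differentiated enterocytes, 1234 to 1781 against 2209 and 1854 (0.46 ± 0.15). The nucleotidase Nt5e read 17.4 to 24.4 against 76.0 and 28.5 CPM (1.29 ± 0.43). Ada, which deaminates adenosine, read 394, 290 and 235 against 1046 and 385 CPM, so its groups overlapped. ICZ replicate 1 was the higher of the pair in the sum over the list, at 7299 against 5568 CPM in replicate 2 and 4170 to 4971 in vehicle. Without ICZ replicate 1 the median was 0.34 and 2 members passed the unadjusted threshold. The same list had medians of 0.17, -0.07, 0.16 and 0.07 in F2 to F5, which also hold ICZ replicate 3.

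Genes of 4 absorptive lists were mostly higher too, by less. Some of these lists share members, such as Slc2a5 and Apoa4, so their counts are not independent. The absorptive enterocyte list had a median of 0.18 with 22 of 25 members positive, the fat absorption list 0.21 with 15 of 17, the brush border list 0.13 with 14 of 16 and the sugar list 0.17 with 12 of 12. The peptide and amino acid list had a median of 0.04 with 11 of 18 positive. Over all settings the medians ran from 0.10 to 0.25 for absorptive enterocyte, 0.11 to 0.31 for fat, 0.07 to 0.16 for brush border, 0.05 to 0.30 for sugar and -0.01 to 0.14 for peptide genes. No member passed after adjustment. Slc2a5, the fructose transporter, read 299 to 477 against 615 and 726 CPM (0.75 ± 0.17, adjusted p = 0.387). Dgat2, which makes triglyceride, read 180 to 252 against 300 and 268 CPM (0.45 ± 0.14, adjusted p = 0.922). The phase 1 enzymes Cyp2j6 (0.55 ± 0.14) and Cyp3a13 (0.49 ± 0.14) and the pump Abcc2 led 26 other xenobiotic genes, of which 6 passed the unadjusted threshold and 20 did not. Lower villus genes were all lower, with a median of -0.20 and 0 of 10 positive.

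Crypt markers were mostly lower in F1, none past the threshold. Stem cell markers had a median of -0.37, with 4 of 16 positive and 7 with groups apart in the lower direction. Olfm4 read 180, 121 and 159 CPM in vehicle and 83.1 and 126.5 with ICZ (-0.53 ± 0.19), while Lgr5, the receptor that marks cycling stem cells, stayed at 3.44 to 5.07 CPM in both groups. Paneth cell genes, antimicrobial peptides of the crypt base, had a median of -0.58 with 0 of 10 positive, but no member had groups apart. Proliferation genes had a median of -0.21 with 5 of 28 positive, which became 0.10 without vehicle replicate 1. Vehicle replicate 1 had the highest proliferation sum of the 5 libraries, 1125 CPM against 579 to 726. Over all settings the medians ran from -0.42 to -0.22 for stem cell, from -0.86 to -0.18 for Paneth and from -0.35 to 0.10 for proliferation genes. In F2 the same lists had positive medians, 0.42 for stem cell, 0.91 for Paneth and 0.52 for proliferation genes. F2 also holds ICZ replicate 3, which has no F1 value here. Its F2 score of absorptive minus proliferation markers was 4.14, against 5.45 and 4.81 in the other ICZ mice and 5.13 to 5.64 in vehicle. Whether the signs in F2 depend on this mouse was not tested. In bulk RNA, fewer cells of a type and less RNA per cell cannot be told apart.

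**Figure D4:**
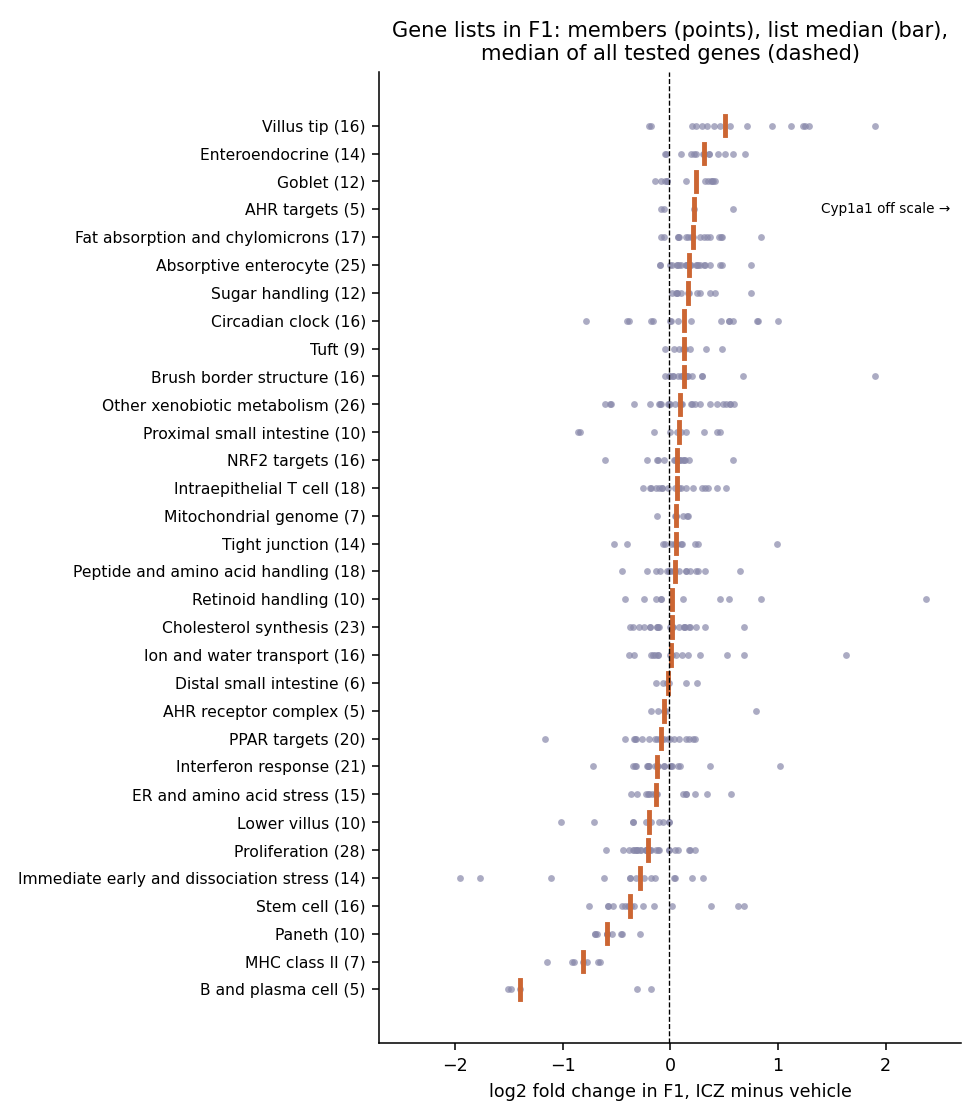
Log2 fold change in F1 (x axis) of the tested members of each list (points), the list median (bar) and the median of all genes (dashed). Numbers in brackets are tested members. Villus tip genes lie mostly right of 0 with a median of 0.51, and Paneth genes all left of it.

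Enteroendocrine genes were mostly higher, and goblet cell genes were divided. Goblet cell genes had a median of 0.24 (0.07 to 0.39 over all settings), with 7 of 12 positive, and 5 passed the unadjusted threshold, among them Zg16 (5909, 7097 and 7567 against 8922 and 9017 CPM) and Tff3 (1884, 2394 and 2650 against 2984 and 3131 CPM), both secreted with mucus. That count was 1 without vehicle replicate 1 or ICZ replicate 1, 3 without vehicle replicate 2 and 0 without ICZ replicate 2. Enteroendocrine genes had a median of 0.31, with 12 of 14 positive and 7 with groups apart. The incretin Gip read 110, 116.5 and 89.6 against 161 and 151 CPM (0.58 ± 0.13, adjusted p = 0.387), and Cck, the gallbladder hormone, 192, 147 and 145 against 245 and 210 (0.51 ± 0.14, adjusted p = 0.599). No goblet or enteroendocrine gene passed after adjustment. Muc2 had 0 reads in F1, as did 6 of the 13 listed mitochondrial genome genes, mt-Co2 among them. Whether such zeros come from expression or from the counting was not tested.

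**Figure D5:**
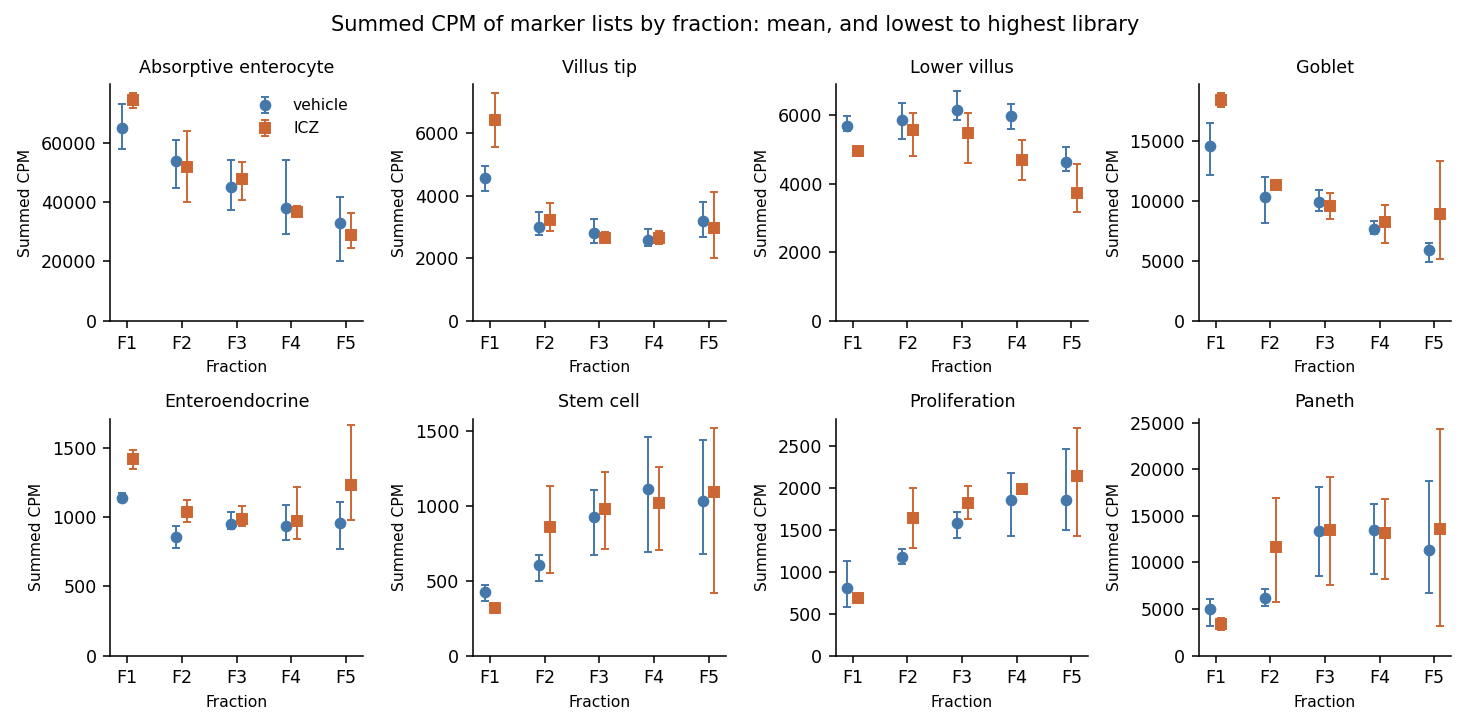
Summed CPM (y axis) of 8 marker lists by fraction (x axis), with the mean as a point and the lowest and highest library as whiskers (n = 3, but 2 for ICZ in F1). Absorptive enterocyte and villus tip sums are highest in F1, stem cell, proliferation and Paneth sums lowest there.

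Immune markers set single vehicle libraries apart. Igha, the IgA heavy chain, was at 279.5 CPM in vehicle replicate 3 and at 15.4 to 43.0 in the other 4 libraries. MHC class II genes summed to 1247 CPM in vehicle replicate 1, against 362 to 519 in the other 4, and the list median of -0.81 became -0.19 without it. Intraepithelial T cell genes summed to 428 to 1193 CPM in vehicle and 672 and 1006 with ICZ. A score of absorptive minus proliferation markers was 5.72, 6.78 and 6.14 in vehicle and 6.41 and 6.68 with ICZ, so its groups overlapped. With that score in the fit, Cyp1a1, Tmem86b and Tns4 stayed past the threshold and Bco1 did not (adjusted p = 0.125).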

How the data were processed

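The authors deposited 1 table of whole-number read counts per gene (54146 genes), without normalization. The submitters' processing notes list BWA 0.7.17-r1188 for alignment, HTSeq 0.11.2 for counting, SAMtools 1.10, FastQC 0.11.2 and the build GRCm38.p6 (mm10). Annotation release, strandedness and molecular identifiers: not given in the sources used here. Reads are therefore not shown to be independent molecules, and overlapping antisense genes cannot be told apart. The 5 summary rows and 1 column of unstated identity were left out of all fits.

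Samples were grouped by their labels. No label says that replicate numbers pair the mice. Same-numbered F1 libraries had deviations from their group mean that correlated at 0.189 (replicate 1) and 0.101 (replicate 2). With 2 ICZ libraries these deviations mirror each other, so the correlations cannot decide whether the numbers pair mice. F1 was tested on 5 libraries with edgeR 4.0.16 (filterByExpr, TMM, robust quasi-likelihood fit) and Benjamini-Hochberg adjustment at 0.05. A second fit over 29 libraries, blocked by mouse, tested F1 against F2 to F5. SE is the size of the log2 fold change divided by the root of the F statistic, and log2 CPM used a prior count of 2. Alternatives used DESeq2 1.42.0, limma 3.58.1 and R 4.3.3. With 2 mice against 3, an exact permutation test cannot go below 0.1. As run here, with both directions counted, it gave 0.2 for Cyp1a1 and Bco1, whose groups were apart. Ratios with a group at 0 reads use a floor of 3 reads over that group. The 95% counting intervals cover counting error only.

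Both fits were run on simulated counts with known changes, as a check of the code. The simulation gave every gene the same dispersion and held no mouse effect, so it does not show how the fits behave on these replicates. Named genes were the 16 AHR genes (1 of them is not reported here), up to 12 per direction with the largest change among those past the threshold, a mean of at least 5 CPM and groups apart, filled by smallest p; up to 4 members of smallest p per list; and 6 genes of the difference; predicted genes and clone names were left out. The comparison and its 35 gene lists were chosen with earlier results of these data known. Coordinates are GRCm38 positions from GENCODE M21, counted from 1; promoters are from RefSeq, and the RefSeq starts of Cyp1a1 and Tmem86b lie inside the GENCODE genes.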

Additional observations from a re-analysis of the deposited data

How the results depend on the processing

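The count of 4 genes in F1 was 3 to 6 under RLE or upper quartile factors, a minimum of 1 CPM, limma voom, non-robust dispersion and the marker score as covariate. It was 57 with no filter on low counts (48 higher, 9 lower), 18 with DESeq2, 2 in the fit over all 29 libraries (Acta1 and Tns4) and 45 with the replicate block (42 higher, 3 lower), which holds all 4. Leaving out single libraries gave 1 to 22, the 1 (Cyp1a1) without ICZ replicate 1 and the 22 without vehicle replicate 1. Prior degrees of freedom state how strongly a gene's variance is drawn to the shared trend. With no filter their median was infinite in both tests, against 11.1 (F1) and 12.2 (F1 against F2 to F5) in the main fits. The typical gene's own variance then had no weight. The replicate block left 1 residual degree of freedom, against 3 in the main F1 fit. Whether these account for the shifts was not tested. Bco1 also missed the threshold with RLE factors (adjusted p = 0.0531) and, with Tmem86b, in the 29-library fit (1.00 for both). The test of F1 against F2 to F5 called 18 genes with no filter and 0 otherwise, with and without the replicate block and without any single mouse.

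Signs turned for 6 genes, of which Igha was past the threshold with its turned sign under the replicate block (adjusted p = 0.0104). Leaving out single libraries, Tiparp ran from -0.219 to 0.13, Ugt1a6a from -0.12 to 0.497, Arnt up to 0.012, Hsp90aa1 from -0.18 to 0.044, Igha from -1.987 to 0.92 and Bco1's difference between fractions from -0.017 to 0.705. With the replicate block Ugt1a6a was -0.10, Arnt 0.02, Hsp90aa1 0.005 and Igha 0.97, and with the score Hsp90aa1 was 0.017. The main comparison tested 12335 genes, against 23804 with no filter.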

Other observations

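Of 16 tested clock genes 10 had a positive log2 fold change and none passed. Tef, a PAR bZIP factor, read 23.1, 29.8 and 43.6 CPM in vehicle and 54.1 and 57.4 with ICZ (0.80 ± 0.24 on the log2 scale, adjusted p = 0.922 by edgeR's quasi-likelihood test). Per3 read 2.08 to 6.88 against 7.52 and 8.11 CPM, and Hlf 13.3 to 23.0 against 21.3 and 31.4, with overlap for Hlf. In the tight junction list the claudin Cldn4 read 42.8, 31.0 and 26.2 against 83.8 and 47.3 CPM (0.99 ± 0.27, adjusted p = 0.899), while Cldn2, a pore-forming claudin of the crypt, read 29.5 to 61.1 against 35.2 and 27.5 (-0.53 ± 0.27, adjusted p = 0.995).

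Of 15 tested genes of the endoplasmic reticulum and amino acid stress list 9 were lower, none past the threshold. Hspa5, the chaperone of the endoplasmic reticulum, read 955, 798 and 928 CPM in vehicle and 757 and 615 with ICZ (-0.37 ± 0.14, adjusted p = 0.995). The heat shock gene Hspa1b read 2.35, 6.49 and 10.1 against 1.29 and 1.87 CPM (-1.95 ± 0.62, edgeR adjusted p = 0.946). It shares nearly all its coding sequence with Hspa1a, and whether this affects its 3' end reads was not tested. The immediate early list had a median of -0.28, which turned positive without vehicle replicate 3 and with the replicate block. PPAR targets had a median of -0.09 with 13 of 20 negative, and interferon response genes -0.12 with 15 of 21 negative; none passed after adjustment.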
